A study of Rattus norvegicus with 6 samples.

Results

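The 36 genes described here encode the protein folding and heat shock machinery of the cell. They comprise the sensors and transcription factors of the unfolded protein response, chaperones and folding enzymes of the endoplasmic reticulum (ER), targets of the stress transcription factors ATF4 and CHOP, chaperones of the cytosol with their regulators, and chaperones of mitochondria. They were chosen by name, and 33 of the 36 stood on a probe set that names exactly 1 gene, out of 14506 such genes on the array. Hspa1a and Hspa1b, the inducible HSP70 genes, were named only together with other genes on 1 probe set and are not reported, and Ern1, the gene of the sensor IRE1, was not analysed here. Where a gene had several probe sets, the brightest one by mean log2 value was used. Of the 33 genes, 30 passed a filter that kept the brighter 60% of probe sets (mean intensity above 94.4), and Sdf2l1, Trib3 and Hspb1 lay below it.

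The arrays held RNA of cortical neurons taken from Sprague-Dawley rat embryos at day 18 and cultured for 3 days in NB-N2 medium. Neurons received 10 nM C1q, the recognition protein of the classical complement pathway, for 3 h (3 arrays), or were left untreated (3 arrays). No genetic change was labelled in either group. The labels number the arrays 1 to 3 and do not state whether these came from separate cultures, so p-values measure only the spread between the arrays, which may be technical. In cultures of mixed cells, fewer cells of a type and less RNA per cell cannot be told apart.

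Proteins that fail to fold in the ER are sensed by 3 membrane proteins, IRE1, PERK and ATF6. IRE1 splices the Xbp1 mRNA, PERK slows translation and thereby raises the protein ATF4, and ATF6 is cut to release a transcription factor. Together these raise ER chaperones such as BiP and, under lasting stress, the factor CHOP, which favours cell death. In the cytosol, misfolded proteins release the factor HSF1, which raises HSP70, HSP90 and their partners. Much of this signalling acts on translation, splicing or protein cleavage, which an mRNA level does not show. Neurons that extend neurites make large amounts of membrane and secreted protein, and neurons are known for a weak induction of HSP70.

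These factors act through short promoter sequences, which are printed here for a selection of the genes with a match. RefSeq promoters of the GRCr8 assembly, from 250 bases before to 50 bases after the start, were available for 28 of the 36 genes and were searched on both strands. The ER stress element, spelled CCAAT and CCACG with 9 bases between them and bound by ATF6 together with NF-Y, was found in 5 of these 28 promoters (17.9%) and in 0.0657% of all 33469 promoters. Each stretch is given 5′ to 3′ in the direction of its gene, with the match in capitals, and the element reads in reverse in Creld2:
Hspa5, chr3:38452953-38453011, plus strand: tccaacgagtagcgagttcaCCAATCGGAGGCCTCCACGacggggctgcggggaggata
Xbp1, chr14:84604538-84604596, plus strand: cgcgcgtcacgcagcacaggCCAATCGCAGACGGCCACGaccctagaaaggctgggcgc
Hsp90b1, chr7:23012431-23012489, minus strand: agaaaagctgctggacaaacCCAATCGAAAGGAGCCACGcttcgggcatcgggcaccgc
Canx, chr10:35158049-35158107, minus strand: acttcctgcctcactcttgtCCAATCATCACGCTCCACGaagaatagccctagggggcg
Creld2, chr7:121789219-121789277, plus strand: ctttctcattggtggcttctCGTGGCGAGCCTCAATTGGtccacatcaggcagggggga
The match begins 43 bases before the start in Hspa5 and 65 bases before it in Xbp1, and Hsp90b1 holds a second match at 72 bases.

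The heat shock element, spelled GAA, TTC and GAA with 2 bases between neighbouring units and bound by HSF1, was found in 5 of the 28 promoters (17.9%) and in 0.798% of all promoters. The genes were Hspa8, Hsph1, Dnaja1, Hspd1 and Hspe1. The last pair are neighbours whose starts lie 290 bases apart on opposite strands, so the same bases hold the element of both genes. Overlapping matches are capitalised as 1 block:
Hspe1, chr9:64084242-64084299, plus strand: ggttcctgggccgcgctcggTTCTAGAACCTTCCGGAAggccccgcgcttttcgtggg
Hspd1, chr9:64084242-64084287, minus strand: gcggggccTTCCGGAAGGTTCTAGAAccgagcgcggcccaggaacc
Hspa8, chr8:50080439-50080491, plus strand: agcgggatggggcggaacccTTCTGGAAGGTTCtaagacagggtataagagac
Hsph1, chr12:10427312-10427364, plus strand: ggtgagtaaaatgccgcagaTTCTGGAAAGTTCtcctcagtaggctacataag
The shorter cores GAANNTTC and TTCNNGAA, which also lie within the longer element, were found in 9 and 7 of the 28 promoters, against 8.59% and 8.77% of all promoters.

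The ATF4 element TGATGNAA was found in 4 of the 28 promoters (14.3%), those of Chac1, Herpud1, Hspa9 and Trib3, and in 3.98% of all promoters. It reads in reverse in both sequences shown, from the ATF4 and CHOP targets:
Chac1, chr3:126795944-126795991, plus strand: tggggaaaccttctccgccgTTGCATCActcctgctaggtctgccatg
Trib3, chr3:161275527-161275574, minus strand: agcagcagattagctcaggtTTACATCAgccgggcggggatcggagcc
The element TGACGTGG, to which XBP1 and ATF6 can bind, was found in 1 of the 28 promoters, that of Bag3, and in 0.595% of all promoters. A match describes these letters and shows no binding. The genes were chosen by name as parts of these stress responses, so shares above those of all promoters are a description and no test.

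Array medians lay between 147 and 155 and the correlation of any pair of arrays across probe sets was 0.991 to 0.996. Of the neuronal markers, such as Tubb3, Map2 and Dcx, 8 of 8 lay above the filter. So did 7 of 8 astrocyte and 7 of 7 measured radial glia and proliferation markers. The astrocyte marker below it was Gfap, with means of 47.6 after C1q and 51.7 untreated. Above the filter were also 5 of 6 measured oligodendrocyte lineage, 4 of 6 mural and meningeal and 2 of 6 endothelial markers. Among the mural markers, Acta2 had means of 6657 after C1q and 6837 untreated. Microglial markers lay above it in 1 of 8 cases, none of them at 0. Summed marker intensities did not overlap between the groups for 3 of 10 marker lists. The 8 microglial markers summed to 544 to 560 on C1q and 511 to 534 on untreated arrays, the 5 blood markers to 2412 to 2597 and 2115 to 2395, and the 7 inhibitory neuron markers to 14195 to 14505 and 14565 to 15408. Of the microglial markers 7 lay below the filter, and Itgam and P2ry12 had lower means after C1q while the others had higher ones. Cd68, the one above the filter, averaged 130 ± 10.8 after C1q and 117 ± 19.5 untreated (SD, n = 3 each). Among the blood markers, the globin genes Hbb and Hba-a3 had means of 1155 and 1007 after C1q and 970 and 895 untreated. Those of Alas2, Ppbp and Pf4 were 138, 107 and 113 after C1q and 140, 106 and 114 untreated. Every measured inhibitory neuron marker had a lower mean after C1q, where 63.0% of all genes tested had lower means by log2 values. The part of the differences in marker sums in the values below was not tested.

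None of the protein folding and heat shock genes passed the test after 3 h of C1q. Limma with Benjamini-Hochberg adjustment over 17529 probe sets called 0 of 30 genes higher and 0 lower at an adjusted p under 0.05, where 0.0% of all probe sets were called in either direction. At an unadjusted p under 0.05 there were 0 of 30, against 2.49% of probe sets. The smallest unadjusted p was 0.0963, for Dnajb11, and every adjusted p in these lists was 0.9999. Fold changes (C1q over untreated, on the scale of log2(intensity + 16)) lay between 0.929 for Dnajb11 and 1.05 for Creld2. The 95% interval of the fold change stayed within 1.2-fold in either direction for 29 of 30 genes, and for 79.6% of the 9652 genes tested. The exception was Bag3, with an interval of 0.793 to 1.26.

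**Figure D1:**
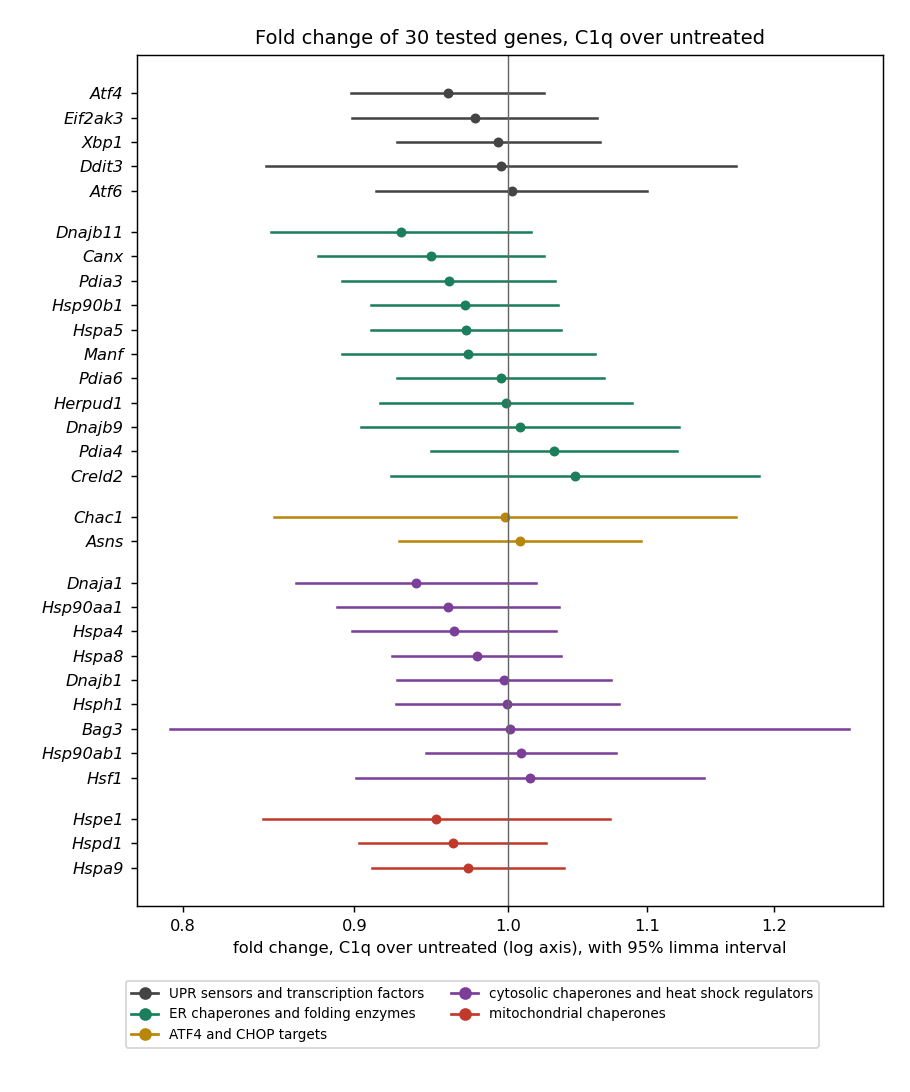
Fold change of each of the 30 tested genes, C1q over untreated neurons, on a log axis. Points are limma estimates, bars are 95% intervals and colours mark the 5 groups of genes; every bar crosses 1, and that of Bag3 is the widest, at 0.793 to 1.26.

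Means were higher after C1q for 9 and lower for 24 of the 33 genes measured, and for 8 and 22 of the 30 tested, by means of log2 values. By means of intensity they were 7 and 23 of the 30, since Bag3 was higher only by its log2 mean. The share with lower means, 73.3% of the tested genes, was 63.0% over all genes tested. It depended on the scaling of the arrays, with 14 of 30 lower (46.7%) after quantile normalization and 15 of 30 after median centring. Over all 9652 genes tested the lower means moved too, to 4522 genes and 3961 genes in the same order. The median log2 fold change was -0.03 over the 33 genes and -0.02 over the 30, beside -0.02 over all genes tested. The plot of medians under each alternative shows that this median moved with that of the whole array under scaling.

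**Figure D2:**
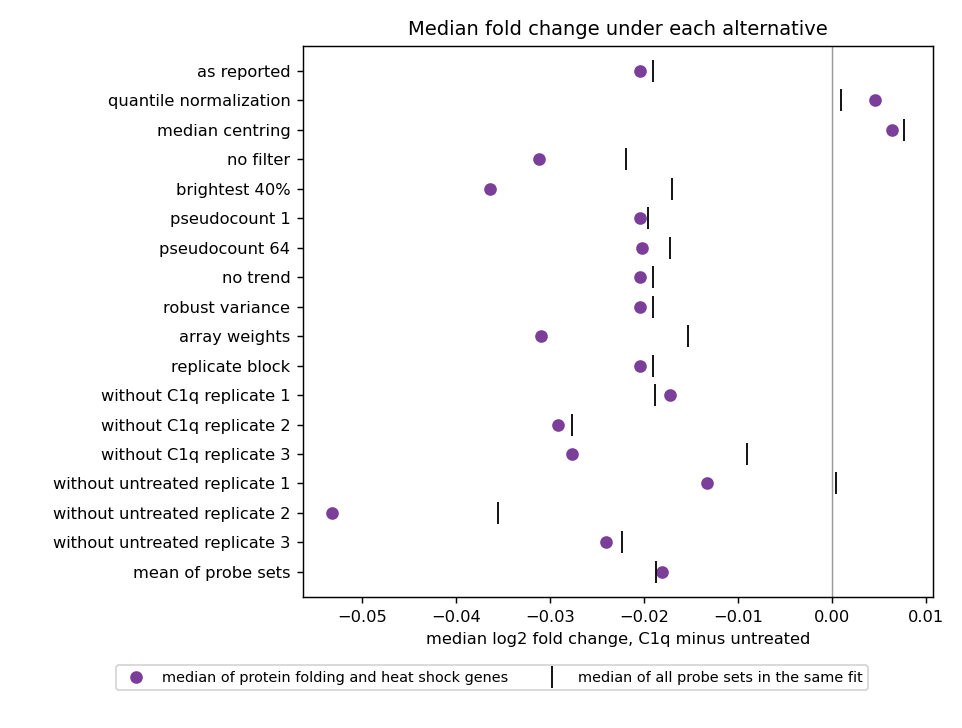
Median log2 fold change (C1q minus untreated) of the protein folding and heat shock genes, as purple points, and of all probe sets in the same fit, as black ticks, for the values as reported and for each alternative. The genes' median lies at -0.02 as reported, at 0.00 after quantile normalization, at 0.01 after median centring and lowest, at -0.05, without untreated array 2.

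Arrays of both groups did not overlap for 2 of the 30 genes, Atf4 and Hspd1, both lower after C1q, and after quantile normalization or median centring the groups of both genes overlapped. Quantile normalization left 2 other genes without overlap, Dnajb11 lower by a log2 difference of -0.09 and Pdia4 higher by 0.06, and median centring left none. Over all genes tested, 3.73% were lower without overlap and 1.23% higher as deposited, 7.38% were without overlap in either direction after quantile normalization, and 3.27% after median centring.

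Of the sensors and transcription factors, 1 mean was higher and 4 were lower among 5 genes, with fold changes of 0.959 to 1.00. After quantile normalization or median centring 3 means were higher and 2 lower. Atf4, which encodes the transcription factor translated when PERK is active, read 2272, 2136 and 2233 on C1q arrays 1 to 3 and 2275, 2326 and 2321 on untreated arrays 1 to 3. The groups were separated by only a few units, between C1q array 1 and untreated array 1. Its fold change was 0.959 with a 95% interval of 0.898 to 1.02 (adjusted p = 0.9999 in limma). Xbp1, the gene whose mRNA IRE1 splices, read 1544, 1502 and 1487 after C1q against 1548, 1541 and 1475 in untreated neurons. These ranges overlapped almost wholly, at a fold change of 0.993 (interval 0.927 to 1.06), and the spliced form was not measured separately here.

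Ddit3, the gene of the death-promoting factor CHOP, read 193, 201 and 193 on C1q arrays, against 232, 169.6 and 193 on untreated arrays. The C1q values lay inside the untreated range, and the untreated arrays alone spanned more than any difference between the groups. The means were 196 ± 4.31 after C1q and 198 ± 31.5 untreated (SD, n = 3 each), and the fold change was 0.995 (interval 0.847 to 1.17). Eif2ak3, which encodes PERK, averaged 921 ± 32.8 after C1q and 943 ± 44.8 untreated (SD, n = 3 each). Atf6 averaged 761 ± 18.3 and 760.0 ± 52.1 in the same order, which made a fold change of 1.00 (interval 0.913 to 1.10). Both groups overlapped for each of these genes.

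Among ER chaperones and folding enzymes, 3 means were higher and 9 lower of 12 measured, and 3 and 8 of 11 tested, and their median was -0.04 on the log2 scale. With either rescaling 5 tested means were higher and 6 lower. Hspa5 encodes BiP, the HSP70 of the ER that also holds the sensors inactive. It read 2672, 2654 and 2660.5 on C1q arrays and 2802, 2633 and 2789 on untreated arrays. The C1q arrays lay close together, just above the lowest untreated array and below the other two. The fold change was 0.972, with an interval of 0.910 to 1.04.

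Canx, the gene of the lectin chaperone calnexin, read 4914, 4755 and 4571 on C1q arrays, against 5309.7, 4702 and 5014 on untreated arrays. Pdia3, a disulfide isomerase that works on glycoproteins, read 4422, 4261 and 4143 after C1q against 4705, 4251 and 4413 untreated. In both genes untreated array 1 was the highest of all 6, untreated array 2 the lowest untreated one, and C1q array 3 the lowest of all. Fold changes were 0.949 for Canx (interval 0.878 to 1.03) and 0.960 for Pdia3 (0.892 to 1.03).

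Dnajb11, which encodes a BiP cochaperone and had the smallest p, read 851, 863 and 816 after C1q and 933, 845 and 951 untreated. Untreated array 2 lay among the C1q values and the other untreated arrays lay above them all. The fold change was 0.929 (interval 0.850 to 1.02). Hsp90b1, the HSP90 of the ER, averaged 3182 ± 58.2 after C1q and 3279.5 ± 94.2 untreated (SD, n = 3 each). The genes with higher means were Creld2, a gene induced by ER stress, at a fold change of 1.05 (interval 0.923 to 1.19), Pdia4 at 1.03 and the cochaperone gene Dnajb9, a target of XBP1, at 1.01. Fold changes were 0.995 for the isomerase gene Pdia6, 0.973 for Manf, a secreted neurotrophic ER protein, and 0.998 for Herpud1, a component of ER-associated degradation. Sdf2l1, below the filter, averaged 65.3 ± 7.90 after C1q and 69.7 ± 7.81 untreated (SD, n = 3 each). The genes with an ER stress element, Hspa5, Xbp1, Hsp90b1, Canx and Creld2, had fold changes of 0.949 to 1.05, on both sides of 1.

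The ATF4 and CHOP targets gave 1 higher and 2 lower means of 3 measured. With either rescaling both of the 2 tested genes had higher means. Asns, asparagine synthetase, read 1216, 1241 and 1241 on C1q arrays, against 1286, 1137 and 1248 on untreated arrays. Its C1q values lay inside the untreated range, at a fold change of 1.01 (interval 0.928 to 1.10). Chac1, which encodes a glutathione-degrading enzyme, read 186, 168 and 204 after C1q and 169, 211 and 180.0 untreated. Both groups covered much the same range, at a fold change of 0.998 (interval 0.852 to 1.17). Trib3, a pseudokinase gene below the filter, averaged 62.1 ± 6.29 after C1q and 68.0 ± 10.6 untreated (SD, n = 3 each), and signal over background is unknown at such intensities.

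**Figure D3:**
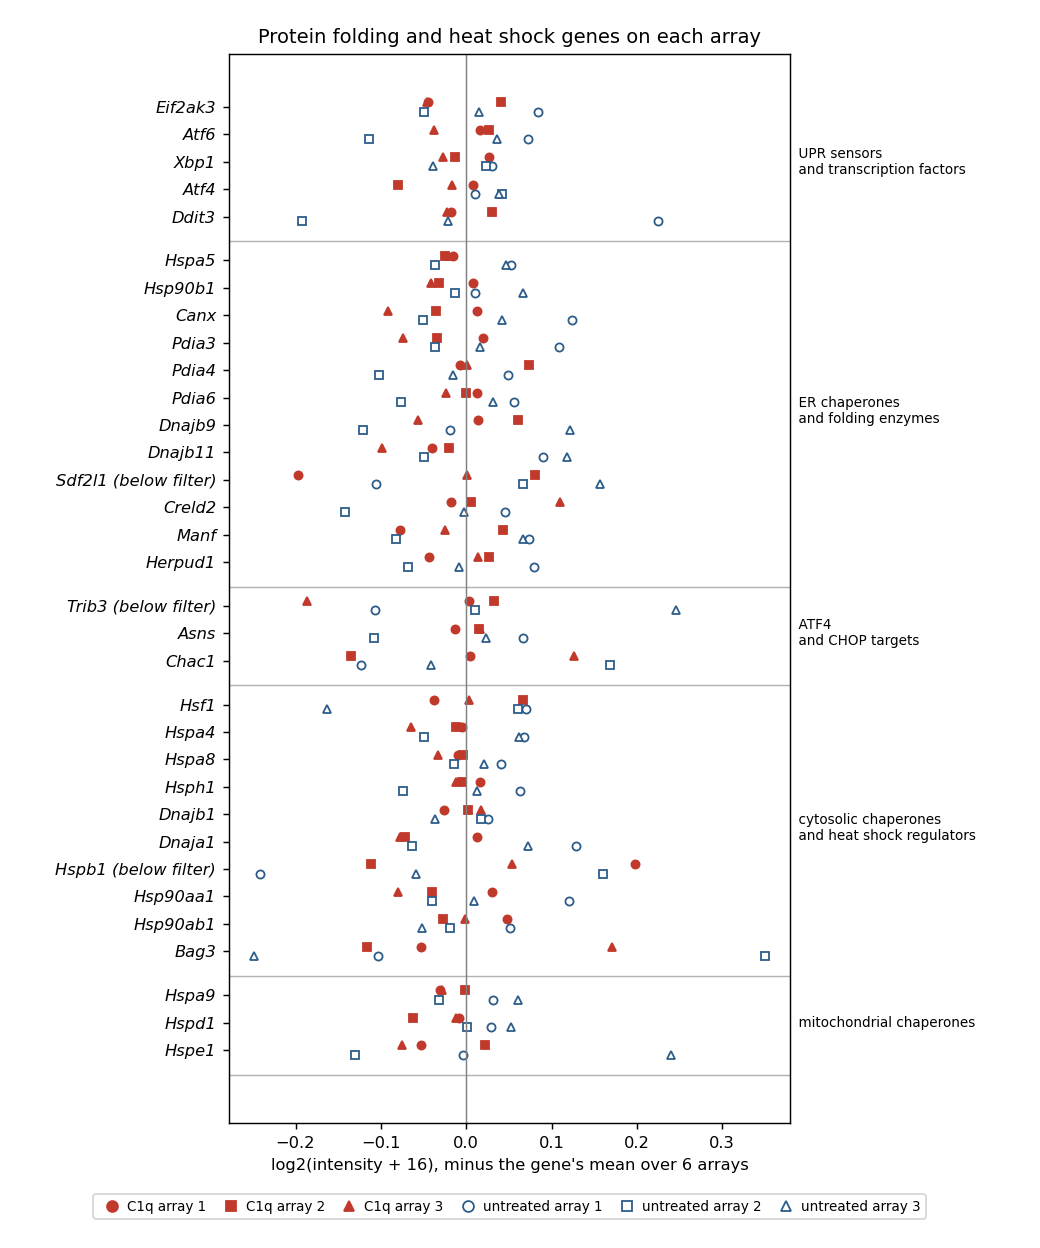
Value of each of the 33 measured genes on each array, as log2(intensity + 16) minus the gene's mean over the 6 arrays. Filled red symbols are C1q arrays and open blue symbols untreated arrays, with circles, squares and triangles for arrays 1, 2 and 3; among the open symbols, squares lie leftmost in 11 of 11 tested ER chaperones and circles rightmost in most of them.

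Among the cytosolic chaperones and their regulators, 4 means were higher and 6 lower of 10 measured, and 3 and 6 of 9 tested. Bag3 counts as higher by its log2 mean alone, at a fold change of 1.00, while its mean intensity was 98.1 after C1q and 99.4 untreated. The tested means numbered 5 higher and 3 lower after quantile normalization, which left Hspa8 without a difference, and 5 and 4 after median centring. Quantile normalization gives probe sets of the same rank the same value on every array, so it can remove a difference by construction. Hsf1, the gene of the heat shock transcription factor, read 367, 396 and 378 after C1q, against 397, 394 and 335 untreated. The C1q arrays lay within the untreated range, and untreated array 3 was the lowest of all. Its fold change was 1.02, with an interval of 0.901 to 1.14. Hsp90ab1, the constitutive HSP90 gene, read 9540.0, 9056 and 9215 on C1q arrays and 9563, 9110.4 and 8903 on untreated arrays. Its groups overlapped at a fold change of 1.01 (interval 0.945 to 1.08). Hsp90aa1, the more inducible HSP90 gene, had a fold change of 0.959 (0.889 to 1.04).

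Hspa8, the constitutive HSP70 gene, read 14851, 14908 and 14604 on C1q arrays, against 15376, 14797 and 15164 on untreated arrays. Untreated array 2 lay within the C1q range and the other two untreated arrays lay above it. The annotation gives 8 probe sets to Hspa8, and their fold changes ran between 0.961 and 1.01, with 7 below 1 and 1 above, at unadjusted p of 0.203 or more. Hspa8 has near-identical copies in the genome whose sequence one probe set can bind, so its separate probe sets are not independent measures.

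Dnaja1, an HSP40 cochaperone gene, read 3244, 3060.0 and 3049 after C1q and 3519, 3077 and 3382 untreated. Its fold change of 0.939 (interval 0.865 to 1.02) was the lowest among the tested cytosolic genes. Untreated array 2 again lay among the C1q values. Fold changes of the other HSP40 and HSP110-type genes were 0.997 for Dnajb1, 0.999 for Hsph1 and 0.963 for Hspa4. Bag3, which links HSP70 to autophagy, lay just above the filter and read 93.5, 88.9 and 112 after C1q, against 89.8, 129 and 79.7 untreated. Untreated array 2 was here the highest of all and untreated array 3 the lowest. Hspb1, the small heat shock protein gene, lay below the filter at 57.2 ± 7.82 after C1q and 52.8 ± 9.63 untreated (SD, n = 3 each).

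The mitochondrial chaperones had lower means after C1q in 3 of 3 genes, as deposited and with either rescaling, and none passed. Hspd1, which encodes the chaperonin HSP60, read 2431, 2339.7 and 2425 on C1q arrays, against 2495, 2445 and 2535 on untreated arrays. The groups did not overlap, and the fold change was 0.963 (interval 0.903 to 1.03, adjusted p = 0.9999 in limma). A second, dimmer probe set of Hspd1 averaged 735 ± 30.6 after C1q and 749 ± 88.6 untreated (SD, n = 3 each), with a fold change of 0.985. After quantile normalization or median centring the log2 fold change of the main Hspd1 probe set was -0.03 in place of -0.05, and the groups overlapped.

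Hspe1, the gene of the cochaperonin HSP10, lies head to head with Hspd1 and shares the heat shock element printed above. It read 1663, 1752 and 1638 after C1q and 1722, 1576 and 2042 untreated. Untreated array 3 stood above all other arrays and untreated array 2 below them all. The untreated values of Hspe1 varied by 13.4%, those of the brighter Hspd1 probe set by 1.82% and those of the dimmer one by 11.8%. The fold change of Hspe1 was 0.952 (interval 0.845 to 1.07). A fit with array weights, in which untreated array 3 had a weight of 5.51, called Hspe1 as lower at an adjusted p of 0.0356 and a log2 fold change of -0.25, where 1.81% of all probe sets were called lower. In that fit 9 of the 30 genes had an unadjusted p under 0.05, against 20.6% of all probe sets. Lower at such a p were 8 of the 30, against 13.9% of all probe sets. Without untreated array 3 the log2 fold change of Hspe1 was 0.03. Hspa9, the mitochondrial HSP70 gene, read 2538, 2591 and 2542 after C1q, against 2649, 2535 and 2706 untreated, at a fold change of 0.973 (interval 0.911 to 1.04).

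**Figure D4:**
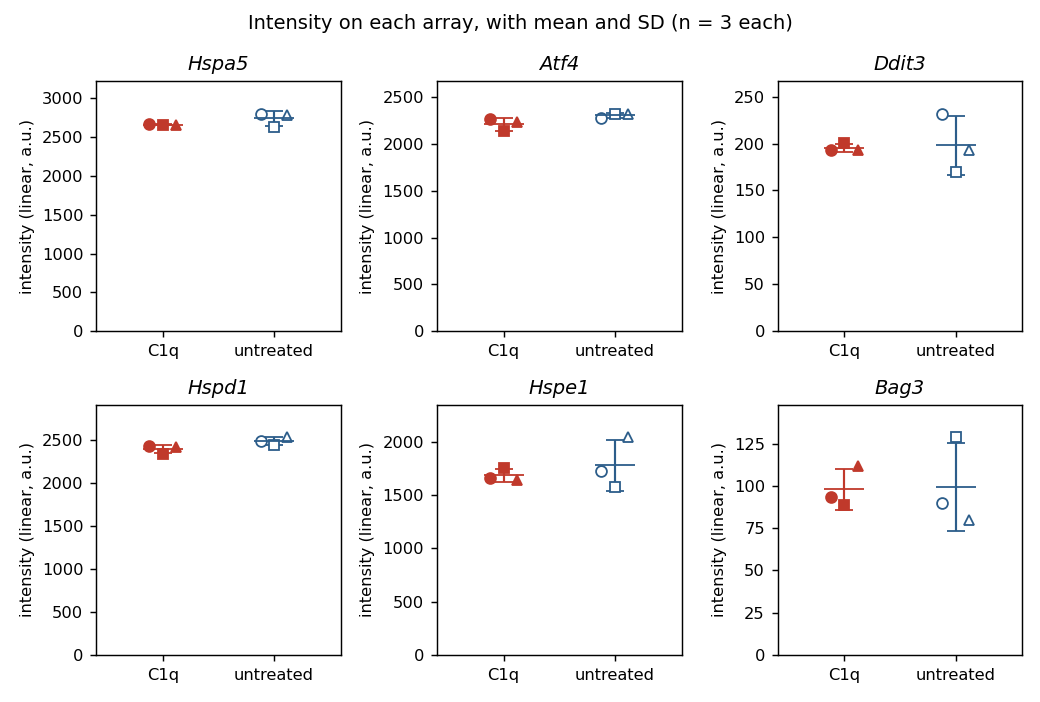
Intensity of 6 of the genes on each array, on linear axes that start at 0, with C1q arrays (filled red) left of untreated arrays (open blue). Horizontal bars are means and whiskers SD (n = 3 each); Hspd1 and Atf4 show narrow groups that do not overlap, whereas the untreated arrays spread widely for Ddit3, Hspe1 and Bag3.

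The genes varied more among untreated than among C1q arrays. The coefficient of variation over 3 arrays was larger in the untreated group for 28 of 30 tested genes, with Atf4 and Hspd1 as exceptions, and for 71.0% of all genes tested. Its median was 2.77% on C1q and 5.30% on untreated arrays for these genes, and 4.01% and 5.80% for all genes tested. Ddit3 varied by 2.20% among C1q and 15.9% among untreated arrays, and Bag3 by 12.4% and 26.1%. On the log2 scale the SD was larger in the untreated group for 22 of 30 genes after quantile normalization and for 29 after median centring, against 64.5% and 76.2% of all genes. No test of this spread between groups was made.

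**Figure D5:**
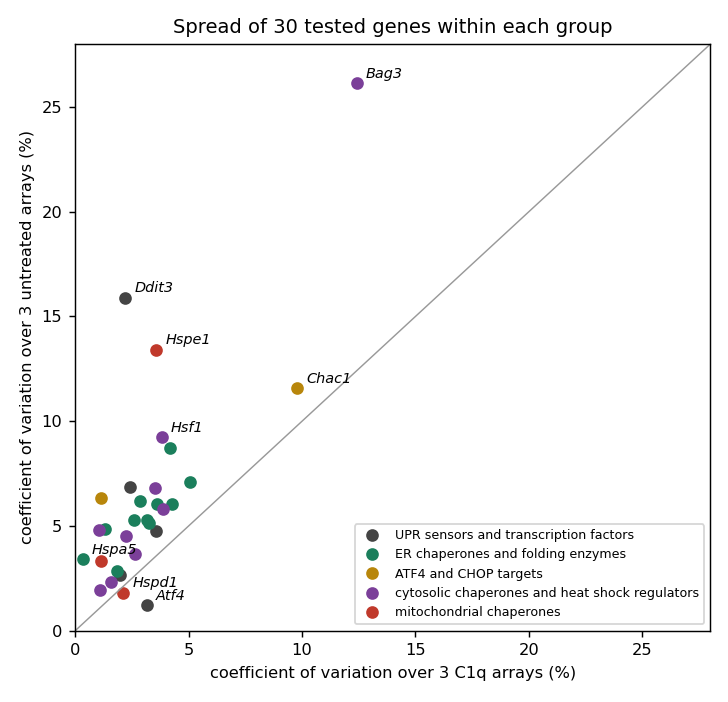
Coefficient of variation of each of the 30 tested genes over 3 C1q arrays (horizontal) and over 3 untreated arrays (vertical), in percent, coloured by group of genes. Points above the diagonal varied more among untreated arrays, as 28 of the 30 did.

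The same untreated arrays stood low or high for many of these genes. Untreated array 2 was the lowest of the untreated arrays for 23 of the 30 genes (76.7%) and for 58.0% of all genes tested, and for 18 of 30 genes after quantile normalization and 25 of 30 after median centring, against 41.1% and 70.9% of all genes. As deposited, that held for 11 of 11 tested ER chaperones and folding enzymes, 3 of 3 mitochondrial chaperones, 5 of 9 cytosolic genes and 3 of 5 sensors and transcription factors. After quantile normalization these counts were 9 of 11, 1 of 3, 4 of 9 and 3 of 5. After median centring they were 11 of 11, 3 of 3, 6 of 9 and 4 of 5. Untreated array 2 had the highest median intensity of all arrays, at 155, so median centring lowers its values most by construction. On the further ER stress and ATF4 target lists described below, untreated array 2 was the lowest untreated array, as deposited, for 23 of 30 and 14 of 20 genes. On the further cytosolic and mitochondrial lists it was so for 26 of 35 and 6 of 10. After quantile normalization these counts were 13 of 30, 8 of 20, 14 of 35 and 1 of 10, in the same order, against 41.1% of all genes. After median centring they were 26 of 30, 15 of 20, 32 of 35 and 8 of 10, against 70.9%. As deposited, Atf4, Chac1 and Bag3 went the other way, with untreated array 2 as their highest untreated value. Untreated array 1 was the highest of the untreated arrays for 21 of the 30 genes (70.0%), against 61.7% of all genes tested. Without untreated array 2, the median log2 fold change of the 30 genes was -0.05 and 4 of them had an unadjusted p under 0.05, all lower, namely Canx, Dnajb11, Dnaja1 and Hspe1. In that fit 6.99% of all probe sets were lower at such a p, and the median of all probe sets was -0.04. The smallest adjusted p among the 4 genes was 0.320, so none passed. Without untreated array 1 the median was -0.01, with 14 means higher and 16 lower.

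The wider pathway was described on 4 further lists, on which none of the tested genes passed and none had an unadjusted p under 0.05. Of 30 tested genes of ER stress and quality control, 9 means were higher and 21 lower, the median log2 difference was -0.03, and 1 gene was lower without overlap, against 3.73% of all genes. That gene was Atf5, a stress transcription factor related to ATF4, which read 415, 390.5 and 385 on C1q arrays and 416, 426 and 440.4 on untreated arrays. The groups lay about 1 unit apart and overlapped after either rescaling, when 0 genes of the list (quantile normalization) and 1 other gene (median centring) were without overlap. Its fold change was 0.931 (interval 0.844 to 1.03), and that of Ero1a, the oxidase that recharges disulfide isomerases, was 0.939 (0.839 to 1.05). Of 20 other ATF4 and CHOP targets, among them Ero1a again, 3 means were higher and 17 lower, at a median of -0.06, and 2 were lower without overlap, beside the same 3.73% of all genes. Without overlap in either direction were 2 after quantile normalization and 1 after median centring. The shares of all genes were 7.38% and 3.27% for these counts and for those of the ER stress list. Slc3a2 and Slc7a5, which form an amino acid exchanger together, had fold changes of 0.953 (0.894 to 1.02) and 0.954 (0.891 to 1.02). Slc7a5 read 1943, 2082 and 2064 after C1q, against 2162, 2099 and 2120.2 untreated, without overlap as deposited and with overlap after either rescaling.

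Of 35 other cytosolic chaperone and heat shock genes, 6 means were higher and 29 lower, the median log2 difference was -0.04, and 4 were lower without overlap as deposited, against 2 without overlap after quantile normalization and 0 after median centring. The shares of all genes were 3.73%, 7.38% and 3.27% for these counts. Cct7, a subunit of the chaperonin that folds actin and tubulin, read 2679.7, 2594 and 2646 on C1q arrays, against 2801, 2769 and 2860.4 on untreated arrays. Its groups did not overlap, and the fold change was 0.940 (interval 0.883 to 1.00, adjusted p = 0.9999 in limma). After either rescaling they overlapped. Dnajc7, a cochaperone of HSP70 and HSP90, had a fold change of 0.941 (0.876 to 1.01). Of 10 other mitochondrial chaperones and proteases 2 means were higher and 8 lower. Grpel1, a nucleotide exchange factor of the mitochondrial HSP70, had a fold change of 0.936 (0.833 to 1.05), and Dnaja3 had 0.971. After quantile normalization the higher and lower means of these 4 lists numbered 13 and 17 for ER stress and quality control, 4 and 16 for ATF4 and CHOP targets, 11 and 24 for cytosolic and 4 and 6 for mitochondrial genes. After median centring the numbers were 14 and 16 for ER stress and quality control, 5 and 15 for ATF4 and CHOP targets, 12 and 23 for cytosolic genes, and 6 and 4 for mitochondrial genes. Of all 9652 genes tested, 6085 (63.0%) had lower means as deposited, 4522 after quantile normalization and 3961 after median centring.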

How the data were processed

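The authors deposited 1 intensity on a linear scale per probe set and array, whose summarisation and normalization were not given in the sources used here. Biotin-labelled cRNA was made by the Affymetrix protocol, per the labels. On the log2 scale the medians of the arrays lay within 0.070 of each other, under a limit of 0.1, so the deposited intensities were used as they were. Of 29215 probe sets, 15310 named 1 gene in the platform annotation, 323 several and 13582 none, and 15279 matched a RefSeq table, with 0 symbols updated. Values were taken as log2(intensity + 16), and fold changes on this scale understate those of dim genes. The brightest 60%, 17529 probe sets, were tested in limma 3.58.1 by lmFit and trended eBayes (R 4.3.3), adjusted by Benjamini-Hochberg over all of them. Genes below the filter have values only. The fit was tested by adding known shifts to the deposited C1q values of some of the tested probe sets. Genes and lists were chosen with earlier results of these data known. Values in every array were given for the 2 genes of brightest probe sets per group, those of the 30 without overlap and Hspa5, Ddit3, Atf4, Xbp1 and Hsf1, and for each further list the 2 genes of smallest p were named. Dnajb11, Dnaja1, Bag3 and Hspe1, and the values by array of Cct7, Atf5 and Slc7a5, were added after their values were seen. The number of arrays limits the precision. Alternatives covered scaling, filter, pseudocount, variance model, weighted arrays, a replicate block, probe set choice and leaving out each array.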

Additional observations from a re-analysis of the deposited data

How the results depend on the processing

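With quantile normalization 15 of the 30 tested genes had higher means after C1q, and with median centring 15, in place of 8. Between 7 and 14 did when 1 array was left out, the most without untreated array 1, and the median log2 fold change then ran from -0.05 to -0.01. None of the 30 genes was called under any alternative but array weights, which called 1, Hspe1. Counts of called probe sets over the whole array were 1 without the filter, 447 with array weights, 9 with the replicate number as a block, and 0 to 38 with 1 array left out, all 38 without untreated array 2. The labels do not say whether same-numbered arrays belong together. Deviations of same-numbered arrays from their group means correlated at 0.01, -0.45 and -0.13, and 1 of 3 correlated best with its own number. With 3 arrays per group, each centred on its own mean, these values cannot show whether the arrays were paired. With quantile normalization 7 of the 30 fold changes took the other sign, and with median centring 7. Signal over background is unknown, so dim genes such as Bag3 and Trib3 may understate a change.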
